A study of Mus musculus with 4 samples.

Results

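The JAK, STAT and SOCS genes described here were Stat2, Stat3, Stat4, Stat6, Jak1, Jak2, Tyk2, Socs1 and Socs3, taken by name from the probe annotation of an Agilent Whole Mouse Genome array. They are 9 of the 28146 gene names on the array, and all 14 of their probes were followed, of 41174 probes that were not controls. A probe is a 60-base oligonucleotide that shines more brightly the more matching RNA binds to it. Both lines compared were derived from EPH-4, a non-malignant mouse mammary epithelial cell line. EV-50 carried the empty vector H1-2, and shGR-19 carried an shRNA vector directed against the glucocorticoid receptor (GR, encoded by Nr3c1). Both had received a puromycin resistance marker and were kept without serum or added glucocorticoid in 2 µg/ml puromycin. Each line was grown from 1 colony, so that an effect of GR depletion and a difference between clones cannot be told apart. The comparison asks which genes differ when GR is depleted in cells without its ligand. Each line had 2 arrays, each made from 300 ng RNA, and nothing in the labels says that they came from separate cultures. The p-values therefore measure only the spread between these samples, which may be technical.

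JAK kinases are bound to the inner part of cytokine receptors. When a cytokine arrives they phosphorylate the receptor and the STAT proteins docked on it, and the STATs pair and act as transcription factors in the nucleus. STAT2 acts with IRF9 in ISGF3, the factor that switches on interferon-stimulated genes, while STAT3 follows the IL-6 family, STAT4 follows IL-12 and STAT6 follows IL-4 and IL-13. SOCS1 and SOCS3 are induced by the pathway and shut it off by binding the kinases and receptors. In the mammary gland the pathway is best known for prolactin and STAT5 in milk production and for STAT3 in involution after weaning.

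The proximal promoters of Stat2, Socs1 and Socs3 are shown because these genes differed between the lines in the value table and because their promoters contained a match to a known STAT or interferon motif. Each sequence is the 250 bases before the start of the gene in RefSeq (GRCm38.p6), 5′ to 3′ on the strand of the gene, with the motif matches in capitals. The windows are chr10:128270248-128270497 on the plus strand for Stat2, chr16:10785537-10785786 on the minus strand for Socs1 and chr11:117969367-117969616 on the minus strand for Socs3.
Stat2: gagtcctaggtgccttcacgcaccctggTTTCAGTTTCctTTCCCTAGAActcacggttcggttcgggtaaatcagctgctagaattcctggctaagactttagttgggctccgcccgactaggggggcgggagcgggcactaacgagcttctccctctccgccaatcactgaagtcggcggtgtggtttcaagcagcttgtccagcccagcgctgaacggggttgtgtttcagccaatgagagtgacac
Socs1: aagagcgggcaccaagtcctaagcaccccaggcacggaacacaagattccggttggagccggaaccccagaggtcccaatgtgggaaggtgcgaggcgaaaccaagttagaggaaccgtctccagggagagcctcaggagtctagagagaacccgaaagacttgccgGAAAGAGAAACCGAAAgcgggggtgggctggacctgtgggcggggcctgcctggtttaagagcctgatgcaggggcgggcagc
Socs3: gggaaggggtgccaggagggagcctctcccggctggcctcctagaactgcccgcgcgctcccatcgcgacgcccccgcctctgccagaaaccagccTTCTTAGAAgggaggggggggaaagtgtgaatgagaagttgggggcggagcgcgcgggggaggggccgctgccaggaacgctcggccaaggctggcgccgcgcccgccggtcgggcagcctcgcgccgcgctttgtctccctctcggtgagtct

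Both strands were searched for 4 motifs. These were GAAANNGAAA, the core of the interferon response element bound by ISGF3 and IRF proteins, TTCNNNGAA, the gamma-activated site bound by STAT dimers, TTCNNNNGAA, the wider spacing preferred by STAT6, and the glucocorticoid response element palindrome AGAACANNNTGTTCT. Stat2 had an interferon element core from 222 to 213 bases before its start, read on the opposite strand, and a wider STAT site from 210 to 201 bases before it. Socs1 had a pair of interferon element cores, from 83 to 74 and from 77 to 68 bases before the start, which overlap. In Socs3 the match was a gamma-activated site from 154 to 146 bases before the start. All 9 genes had a promoter in the RefSeq table, with 10 start sites. Of these, 4 held a match to at least 1 motif, the fourth being an interferon element core from 97 to 88 bases before the second of 2 start sites of Stat4. The windows of Stat3, Stat6, Jak1, Jak2 and Tyk2 held none of these letters. Among 32851 start sites of all genes, the interferon element core was present in 2.98%, the gamma-activated site in 7.02%, the wider STAT site in 5.85%, the glucocorticoid palindrome in 0.00913% and any of the motifs in 14.9%. A match is a description of the letters and was not tested as a binding site.

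**Figure D1:**
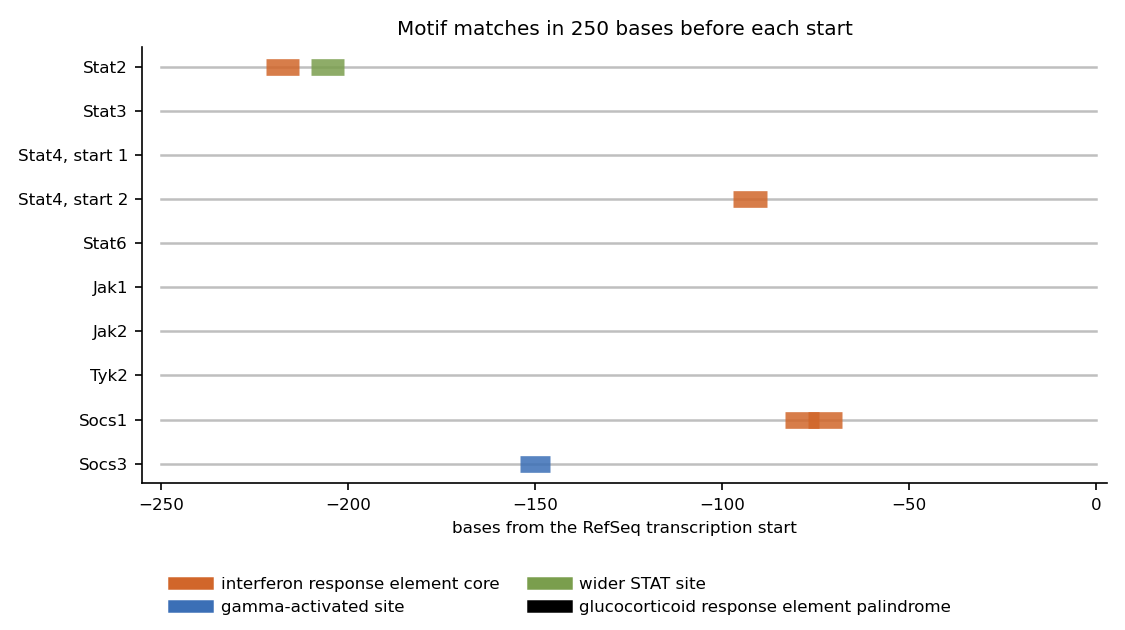
Motif matches in the 250 bases before each RefSeq start site of the 9 genes, with the distance from the start in bases on the horizontal axis and 1 line per start site. Coloured blocks are matches on either strand; 4 of the 10 windows hold one, and no window holds the glucocorticoid palindrome.

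Values were read from 2 sources that differ for these genes. The scanner files give the processed signal of each array, used here as log2 after division by that array's 75th percentile. The value table gives log2 values that the authors centred on the median of each probe over the 4 samples. On the scanner arrays labelled replicate 1 the lines hardly differed, with an SD of the log2 difference of 0.0801 over 10267 brighter probes, whereas the arrays of the same line were further apart, at 0.516 for EV-50 and 0.621 for shGR-19. Between the scanner arrays labelled replicate 2 the SD was 0.446. In the value table the duplicates of EV-50 and of shGR-19 had SDs of 0.0961 and 0.0854, and the lines differed by 0.443 to 0.452 in each of the 4 pairings. Nr3c1 itself differed by -0.35 on the log2 scale between the arrays labelled replicate 1, shGR-19 minus EV-50. Between the arrays labelled replicate 2 its log2 difference was -1.95, and in the table it was -1.94 (SE 0.048, adjusted p = 0.0022). The pair of arrays labelled replicate 1 thus showed a much smaller difference than the other pair, for Nr3c1 in the same direction. Values are therefore given from both sources, by the main probe for 8 of the 9 genes and by the only probe for Stat4. The table's own step from the scanner files was not traced, and the cause of the discrepancy was not tested.

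In the value table, Socs1, Socs3 and Jak2 were higher and Stat2 was lower in shGR-19 compared to EV-50, at an adjusted p below 0.01. Of the 14 probes, 12 stood well above background on each array of 1 line or of both and were tested, covering 8 of the 9 genes. Of the 12 tested, 3 were called higher and 1 lower, and 8 were not called. Over all 24436 probes tested the same call was made for 5.53% as higher and for 6.04% as lower. With more than a 2-fold difference as well, Socs1 remained called higher and Stat2 lower, against 1.87% and 2.39% of all probes. In the scanner files limma called no probe of the array in either direction (0% of 24436), and the smallest adjusted p was 0.931. There 209 probes (0.855%) had an unadjusted p below 0.05, of which 0 were among the 12. On simulated data with the scanner spread, 0 of 200 probes changed by a log2 difference of 2 were recovered. The absence of scanner calls therefore does not show that the lines were alike. The 2 lines did not overlap in the table for 6 higher and 5 lower probes of the 12, beside 36.6% and 35.3% of all probes. In the scanner files they did not overlap for 3 higher and 2 lower probes, beside 11.7% and 6.14% of all probes. These samples are mixed RNA from whole cultures, in which fewer cells expressing a gene and less RNA per cell cannot be told apart.

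**Figure D2:**
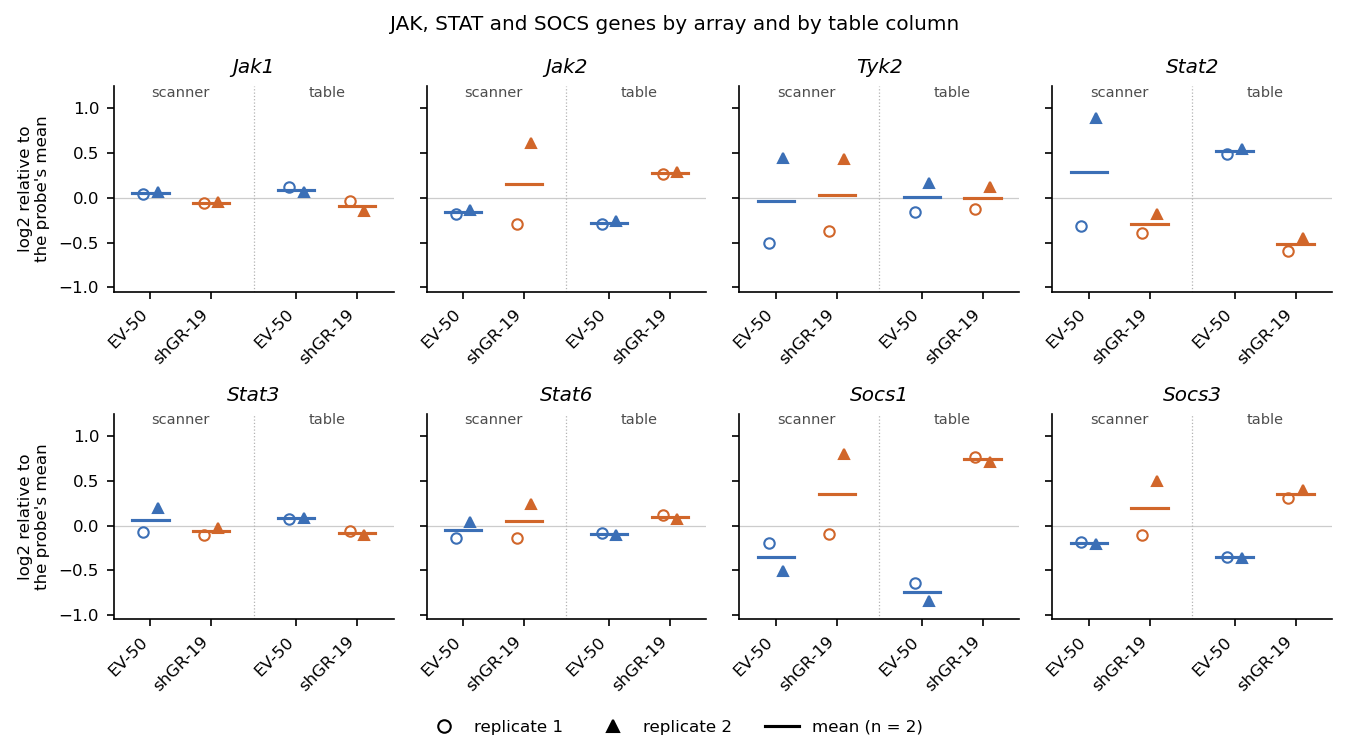
Log2 values of the main probe of each gene relative to the mean of that probe over the 4 samples, for the scanner arrays (left of each panel) and the value table (right). Open circles are replicate 1, filled triangles replicate 2 and bars the mean of 2. In the table the lines separate for every gene shown except Tyk2, with the widest gaps for Socs1, Stat2, Socs3 and Jak2. Such separation was seen for 36.6% (higher) and 35.3% (lower) of all tested probes. On the scanner arrays the replicate 1 values of both lines lie close together.

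Socs1, the inhibitor that binds JAK kinases directly, showed the largest difference of these genes. Its probe at chr16:10783951-10784010 (mm9, the build of the probe annotation) stood at log2 values of -0.68 and -0.88 in the EV-50 columns of the table and at 0.74 and 0.68 in the shGR-19 columns. The lines were thus well apart, and the difference was 1.49 (SE 0.089, 95% interval 1.23 to 1.75, adjusted p = 0.0047), or 2.80-fold higher in shGR-19. It exceeded in size the differences of 97.4% of all tested probes. On the scanner arrays Socs1 gave 0.33 and 0.017 in EV-50 and 0.43 and 1.33 in shGR-19. These values did not overlap between lines either, but the array labelled shGR-19 replicate 1 lay only 0.10 above its EV-50 counterpart, against 1.31 for replicate 2. The scanner difference of 0.71 (SE 0.38) was not called.

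Socs3, the inhibitor that acts at receptors of the IL-6 family, was also higher. In the table its probe at chr11:117827480-117827539 read -0.33 and -0.34 in EV-50 and 0.33 and 0.41 in shGR-19. The difference of 0.71 (SE 0.055, 95% interval 0.55 to 0.87, adjusted p = 0.0065) is 1.63-fold and was larger than in 87.5% of all probes. Its scanner values were 1.19 and 1.17 in EV-50 and 1.27 and 1.87 in shGR-19, again without overlap. Here too nearly all of the difference was between the arrays labelled replicate 2 (0.71) and little between those labelled replicate 1 (0.078), and the mean of 0.39 (SE 0.29) was not called.

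Stat2, the STAT best known from ISGF3, was the one gene of the 8 tested that was called lower. Its probe at chr10:127729181-127729240 read 0.47 and 0.53 in EV-50 and -0.62 and -0.47 in shGR-19 in the table. The lines differed by -1.04 (SE 0.076, 95% interval -1.26 to -0.82, adjusted p = 0.0060), so that the level was 2.06-fold higher in EV-50. In the scanner files Stat2 read -1.14 and 0.066 in EV-50 and -1.22 and -1.01 in shGR-19. Only the array labelled EV-50 replicate 2 stood high, and the array labelled EV-50 replicate 1 lay between the 2 shGR-19 arrays. By replicate number the scanner differences were -0.078 and -1.08, and their mean of -0.58 (SE 0.46) was not called.

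Stat3 and Stat6 differed by small amounts that were not called. The probe of Stat3, at chr11:100749598-100749657, was spotted 10 times on each array, with an SD between spots of 0.0329 to 0.0454. Its scanner values were 2.49 and 2.76 in EV-50 and 2.45 and 2.53 in shGR-19, so that the lines overlapped. In the table the values were 0.071 and 0.084 in EV-50 against -0.071 and -0.11 in shGR-19, a difference of -0.17 (SE 0.047, 95% interval -0.31 to -0.028, adjusted p = 0.0712). The interval excludes a 2-fold difference in either direction.

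Stat6 had 3 probes, each slightly higher in shGR-19 in the table. The brightest, at chr10:127097689-127097748, read -0.083 and -0.10 in EV-50 and 0.13 and 0.083 in shGR-19 there, a difference of 0.20 (SE 0.049, adjusted p = 0.0523). The probe at chr10:127097337-127097395, with 10 spots per array, gave 0.20 (adjusted p = 0.137). A dim probe at chr10:127083983-127084042, well above background on only 1 of the EV-50 arrays, gave 0.43 (SE 0.086, adjusted p = 0.0341). None of the 3 was called. On the scanner arrays the brightest probe read 1.32 and 1.51 in EV-50 and 1.33 and 1.7 in shGR-19, which overlap. The lines also overlapped with the probe of 10 spots. The dim probe read -4.93 and -4.90 in EV-50 and -4.61 and -4.62 in shGR-19, without overlap.

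Stat4, known mainly from lymphocytes, was at or near background on most arrays. Its probe at chr1:52163802-52163861 was well above background on 0 of the EV-50 arrays and on 1 of the shGR-19 arrays, the one labelled replicate 1. The scanner values of -6.85 and -6.25 in EV-50 and -5.08 and -7.64 in shGR-19 and the table values of 0.34, -0.34, -0.51 and 0.53 in the same order had no order by line, and no fold is given.

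Among the kinases Jak2, which serves the prolactin, growth hormone and interferon gamma receptors, was called higher in the table. Its brighter probe at chr19:29386361-29386420 read -0.30 and -0.26 in EV-50 and 0.26 and 0.29 in shGR-19, a difference of 0.56 (SE 0.048, 95% interval 0.41 to 0.70, adjusted p = 0.0077), or 1.47-fold. On the scanner arrays the values were 0.75 and 0.80 in EV-50 and 0.64 and 1.55 in shGR-19. The lines overlapped, since the array labelled shGR-19 replicate 1 was the lowest and that labelled replicate 2 the highest of the 4, and the differences by replicate number were -0.11 and 0.75. A second probe of Jak2, at chr19:29363211-29363270, was well above background on 1 shGR-19 array and on no EV-50 array, and was not tested.

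Jak1, the kinase shared by most cytokine receptors, gave similar values on all arrays with its bright probes. The brightest, at chr4:100825794-100825853, read 3.0 and 3.03 in EV-50 and 2.9 and 2.92 in shGR-19 on the scanner arrays. These values did not overlap, and the differences were nearly equal for replicates 1 and 2, at -0.10 and -0.11. The table gave 0.11 and 0.048 in EV-50 and -0.048 and -0.16 in shGR-19, with a difference of -0.18 (SE 0.066, 95% interval -0.37 to 0.011, adjusted p = 0.116). The neighbouring probe at chr4:100825094-100825153 read 2.44 and 2.64 in EV-50 and 2.34 and 2.35 in shGR-19 on the scanner arrays, with differences of -0.095 and -0.28 by replicate number, and gave -0.21 in the table (adjusted p = 0.116). The lines did not overlap with this probe either, but its replicate pairs differed more than those of the brightest probe.

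The third probe named Jak1 is shown because its coordinates, chr4:100829070-100829129, run along the plus strand while the gene and its other probes lie on the minus strand. A transcript that matches it would be read from the strand opposite to Jak1. It is printed 5′ to 3′ as on the array.
Jak1 opposite-strand probe: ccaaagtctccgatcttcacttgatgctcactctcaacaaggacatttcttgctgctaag
Its scanner values were low, at -4.92 and -4.41 in EV-50 and -4.76 and -4.99 in shGR-19, and the table gave a difference of -0.37 (SE 0.070, adjusted p = 0.0303), which was not called. It is 1 of the 12 tested probes in the counts given here, and 1 of the 5 lower probes whose lines did not overlap in the table, although its coordinates lie on the strand opposite to the gene.

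Tyk2, the kinase of the interferon alpha and IL-12 receptors, did not separate by line in either source. At chr9:20909321-20909380 the scanner values were 0.57 and 1.53 in EV-50 and 0.72 and 1.52 in shGR-19, and the table values were -0.15 and 0.17 in EV-50 and -0.12 and 0.12 in shGR-19. In both sources the samples labelled replicate 2 were the higher ones, by 0.95 and 0.80 on the scanner arrays. The difference between lines in the table was -0.012 (SE 0.16, 95% interval -0.48 to 0.45, adjusted p = 0.959).

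**Figure D3:**
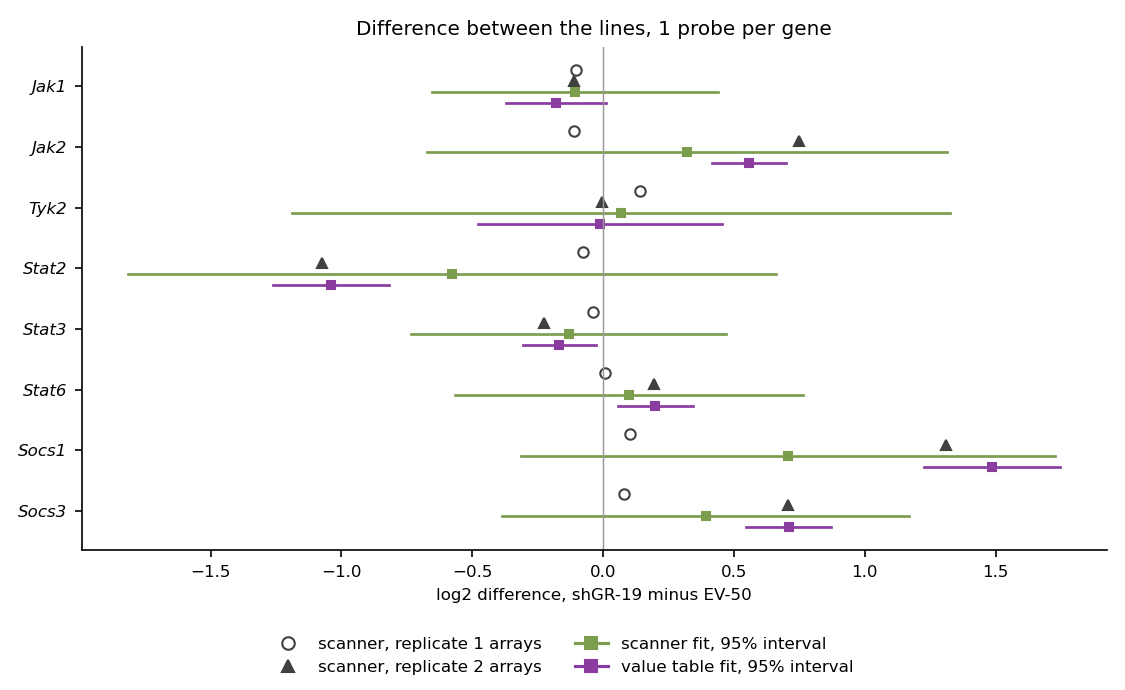
Log2 difference of shGR-19 minus EV-50 for the main probe of each gene. Circles and triangles are the scanner arrays of replicate 1 and replicate 2, and squares with lines are the limma estimates with 95% intervals from the scanner files and from the value table; the circles lie within 0.142 of 0 for all 8 genes, and the scanner intervals all include 0.

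Across the 8 main probes the median absolute log2 difference was 0.0898 between the scanner arrays labelled replicate 1, 0.466 between those labelled replicate 2 and 0.378 in the table. Over all 24436 probes these medians were 0.0803, 0.242 and 0.245. More than a 2-fold difference was seen between the replicate 2 arrays for Socs1, higher, and Stat2, lower, beside 2.37% and 3.16% of all probes, and between the replicate 1 arrays for 0 of the 12 probes, beside 3.57% in either direction. The direction in the table was that of the replicate 2 arrays for 12 of the 12 tested probes and that of the replicate 1 arrays for 9. The table and the arrays come from the same samples by their labels and are not independent. The share over all probes is not given here, so these counts are not read as particular to these genes. With any 1 column of the table left out, 0 probes of the whole array were called, and so 0 of the 12. The adjusted p of the 4 called probes ranged from 0.0366 to 0.0428 for Socs1, from 0.0392 to 0.0462 for Stat2, from 0.0462 to 0.0495 for Socs3 and from 0.0499 to 0.059 for Jak2. Their differences moved little, from 1.39 to 1.58 for Socs1, from -1.12 to -0.96 for Stat2, from 0.67 to 0.75 for Socs3 and from 0.54 to 0.57 for Jak2. In these fits the lone column of a line is assumed to vary like the other line, and 5 or 6 of the 12 probes had an unadjusted p below 0.05, beside 37.1% to 40.2% of all probes.

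**Figure D4:**
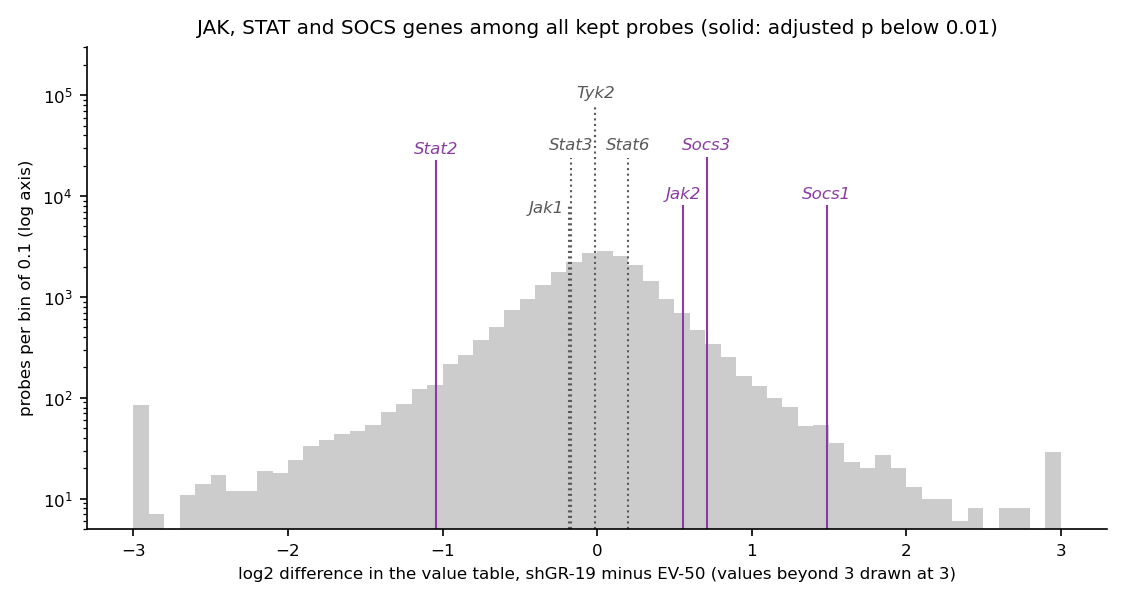
Histogram of the log2 difference, shGR-19 minus EV-50, in the value table for all 24436 tested probes, with the number of probes per bin on a log axis and differences beyond 3 drawn at 3. Solid lines mark Stat2 (-1.04), Jak2 (0.56), Socs3 (0.71) and Socs1 (1.49), which were called, and dotted lines the 4 genes that were not, all within 0.20 of 0.

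Around these genes, 86 further genes of the pathway, listed by role, had a tested probe. Of these 86, 8 were called higher, 18 lower and 60 were not called in the table, where 5.53% of all tested probes were called higher and 6.04% lower. These shares are the background for each list that follows, and the scanner files called 0 in every list. Among the other members of the same families, 0 of 10 were called higher, and the list had a median of -0.18. Stat5a (-0.19) and Stat5b (0.39), the STATs of prolactin signalling, and the remaining inhibitors Cish, Socs2, Socs4, Socs5, Socs6 and Socs7 were not called, the inhibitors lying between -0.32 and 0.33. The median of all tested probes in the table was 0.0087.

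Of the cytokine ligands, 10 of 18 had a tested probe. Clcf1, a ligand of the IL-6 family, was called higher by 0.67, and Csf3, which encodes the granulocyte growth factor G-CSF, by 1.02, and none was called lower, with a list median of 0.23. Il6, Lif, Ifnb1, Ifng, Il4, Il10, Il12a and Il12b had no tested probe. Of 22 receptor genes 18 were tested, with 2 called higher and 2 lower and a median of -0.12. Ifnar1, a chain of the interferon alpha and beta receptor, was higher by 0.84, and Il28ra, a chain of the interferon lambda receptor, by 0.84. Il4ra, which signals through STAT6, had a difference of -0.49 and Ghr, the growth hormone receptor, of -0.96. Between the scanner arrays labelled replicate 1 and those labelled replicate 2, the differences were 0.11 and 0.75 for Clcf1, 0.050 and 0.90 for Csf3, 0.015 and 0.87 for Ifnar1, 0.16 and 0.59 for Il28ra, 0.075 and -0.60 for Il4ra, and -0.048 and -0.98 for Ghr.

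Partners and other inhibitors had 15 of 16 genes tested, with 1 called higher and 2 lower and a median of 0.050. Irf9, the DNA-binding partner of STAT2 in ISGF3, read 0.85 and 0.78 in EV-50 and -0.91 and -0.78 in shGR-19 in the table, a difference of -1.66 (SE 0.071, adjusted p = 0.0033). Usp18, which blocks the interferon receptor and is itself induced by interferon, differed by -1.42, and Ptpn1, a phosphatase of JAK2 and TYK2, by 0.67. On the scanner arrays Irf9 differed by -0.27 between the replicate 1 arrays and by -1.58 between the replicate 2 arrays, Usp18 by -0.45 and -1.33 and Ptpn1 by 0.02 and 0.58 in the same order.

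Targets of interferon signalling gave the lowest values of the lists. Of 18 genes 16 were tested, and 0 were called higher and 10 lower, with a median log2 difference of -1.50 in the table. The largest decreases were those of Oas1a, which makes the activator of RNase L, at -5.78 (54.8-fold), of Irf7, the factor that amplifies the interferon response, at -3.80 (13.9-fold), and of Rsad2, the antiviral protein viperin, at -3.75 (13.5-fold). Their scanner differences for replicates 1 and 2 were -0.24 and -5.84, -0.27 and -3.78, and -0.54 and -3.31. Oas1a read -5.05 on the array labelled shGR-19 replicate 2, where the lowest value well above background was -6.08. Between scanner arrays the list median was -0.26 for replicate 1 and -1.72 for replicate 2, and 16 of 16 genes had the direction of the table on the replicate 2 arrays. Socs1, whose promoter holds interferon element cores as shown above, was called in the direction opposite to these 10 genes. So was Socs3, whose promoter window holds no such core. Stat2, whose promoter also holds an interferon element core, was called lower like these 10 genes.

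Targets of STAT3, STAT5 and STAT6 were divided. Of 21 genes 17 were tested, with 3 called higher, 3 lower and a median of 0.25. Cebpd, a transcription factor induced in involution, was higher by 1.84, Fos by 1.21 and Bcl6, a repressor, by 0.84. Hp, which encodes the acute phase protein haptoglobin, differed by -5.21 (37.0-fold), Cebpb by -0.81 and Bcl3 by -0.75. The scanner differences for replicates 1 and 2 were 0.10 and 1.81 for Cebpd, 0.30 and 1.02 for Fos, 0.063 and 0.79 for Bcl6, -0.095 and -5.37 for Hp, 0.12 and -0.69 for Cebpb, and 0.0092 and -0.78 for Bcl3. Arg1, a known target of STAT6, and Pim1, of STAT3 and STAT5, were not called, at 0.33 and -0.18.

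**Figure D5:**
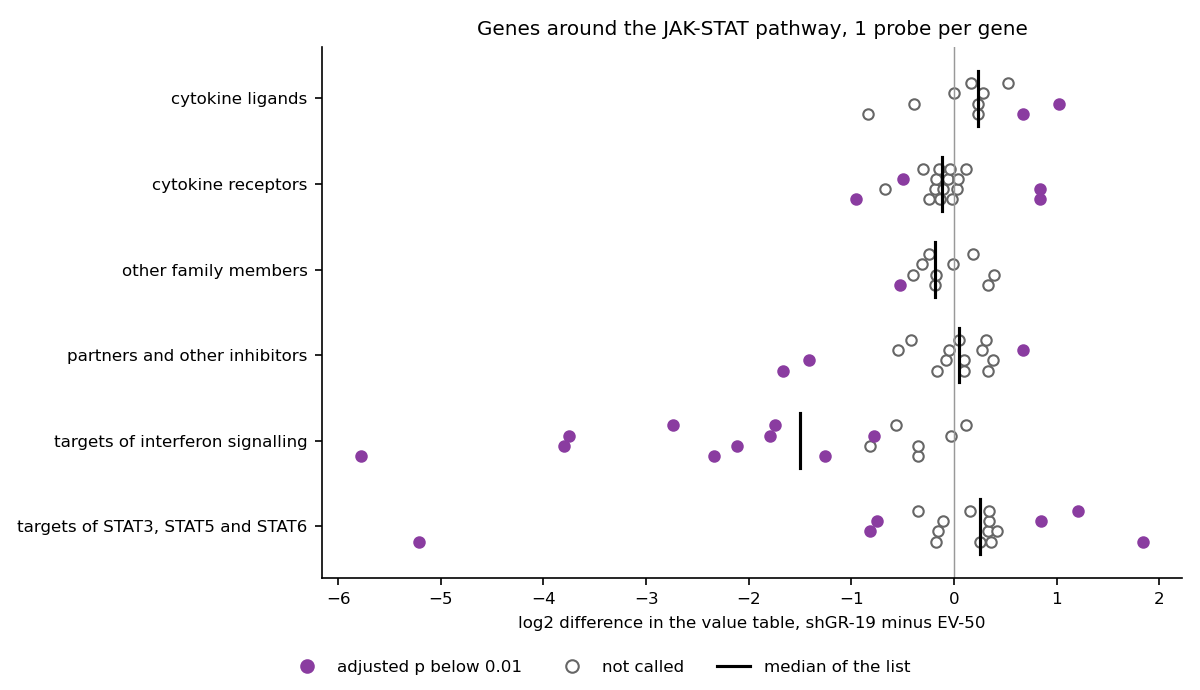
Log2 difference, shGR-19 minus EV-50, in the value table for the 86 tested genes of the 6 lists, 1 point per gene. Filled points were called at an adjusted p below 0.01 and black bars are list medians; the interferon targets reach from -5.78 to 0.11, with a median of -1.50, and the medians of the other lists lie between -0.18 and 0.25.

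Cell type markers were read beside these results. Of 7 mammary epithelial markers 6 were tested. Krt8, Krt18, Epcam and Cdh1 were well above background and not called. Of the basal keratins, Krt14 differed by -1.13 in the table and was called lower. Its scanner differences were 0.024 between the replicate 1 arrays and -1.18 between the replicate 2 arrays. Krt5, also a basal keratin, differed by -0.30 in the table, was not called, and its lines overlapped there. Krt19 was not tested, but its table values were 1.42 and 1.21 in EV-50 and -1.21 and -1.68 in shGR-19. The summed signal of the 6 tested markers was 649 to 657 times the 75th percentile of the array in EV-50 and 574 to 688 in shGR-19. Of 4 fibroblast markers 2 were tested, and both were called higher, Col1a2 by 3.27 and Pdgfra by 1.16. Of the other 2, Col1a1 read -2.80 and -2.78 in EV-50 and 2.78 and 2.78 in shGR-19 in the table, and Dcn had no order by line. The summed signal of the 2 tested fibroblast markers was 1.62 and 3.0 in EV-50 and 1.59 and 30.5 in shGR-19 for replicates 1 and 2. This sum was nearly all Col1a2, with a log2 value of 4.93 on the array labelled shGR-19 replicate 2, beside -2.83 for Pdgfra. The sum thus moved with the same array on which Socs1, Socs3 and Jak2 were highest. The part of these markers in the differences of the JAK, STAT and SOCS genes was not tested. Of 5 immune markers 3 were tested, among which Lyz2 was called higher by 0.76 in the table while the scanner arrays labelled replicate 2 gave -0.30. Their summed signal was 0.27 to 0.39 in EV-50 and 0.30 to 0.40 in shGR-19, and Ptprc and Itgam were not well above background on both arrays of either line. The same held for the endothelial markers Pecam1 and Cdh5 and the fat cell marker Adipoq, and the tested markers of these types, Kdr and Fabp4, were not called.

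The pattern of Socs1 over the 8 values, 4 scanner arrays and 4 table columns each centred on the mean of the probe, was closest by Euclidean distance to those of Osgin1 (0.139), Kcnn1 (0.158), Twist2 (0.181), Id3 (0.218) and Arhgap22 (0.265). These 5 genes had differences of 1.40 to 1.57 in the table and of 0.66 to 0.81 on the scanner arrays, beside 1.49 and 0.71 for Socs1.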

How the data were processed

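The authors deposited the scanner output of the 4 arrays, whose intensity values had been background-subtracted with Agilent Feature Extraction 10.5.1.1 (per the submitters' processing notes) and not scaled between arrays, together with GeneSpring log2 values centred per probe. All 4 arrays lay on 1 slide and were scanned once, so no batch was fitted. From the intensities, control and outlier spots were left out, log2 values were averaged per probe, and the 75th percentile of the array (516 to 584) was subtracted. A probe was kept if each array of 1 line or of both had it well above background. This filter used the scanner arrays for both sources, including those labelled replicate 1. The counts and shares of tested probes in the table therefore depend on these arrays too. Some genes whose lines separated in the table, such as Krt19, Col1a1, Ifi44 and Lcn2, were left untested, as were others that did not separate. Both sources were fitted over 24436 probes with limma 3.58.1 in R 4.3.3 (lmFit, eBayes, Benjamini-Hochberg), and called at an adjusted p below 0.01. The paper's methods name p and a 2-fold cutoff without adjustment. An exact permutation of 2 against 2 cannot give a p below 0.333. Precision is limited by the 4 arrays.

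The genes were fixed by name and the brightest probe is the main probe. Genes named from the lists are at most the 3 largest increases and 3 largest decreases called in the table; those named beyond that (Stat5a, Stat5b, the other inhibitors, Arg1 and Pim1) were chosen after their values were seen. The genes and lists were chosen with earlier results of these data known. Alternatives were normexp with an offset of 50, quantile normalization, the percentile over detected probes, other filters, a robust prior with an intensity trend (statmod 1.5.0), a block for the replicate number, leaving out each array, p-values without adjustment, an adjusted p below 0.05 and, added after seeing the data, each replicate number alone. On simulated data with 200 of 24436 probes changed by a log2 difference of 2, 0 were recovered with the scanner spread and 122 with that of the table, with 1 false call. Probe coordinates are mm9; promoter coordinates are GRCm38.p6, and positions in exons or untranslated regions were not analysed here. The result of 1 gene of the pathway lists is not reported here.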

Additional observations from a re-analysis of the deposited data

How the results depend on the processing

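With 2 arrays per line, the scanner files made 0 calls under every background correction, scaling, filter and left-out array tried. Changed probes were not recovered on simulated data with the scanner spread either (0 of 200), so 0 calls do not show that the lines were alike. Without adjustment, at p below 0.01, 21 probes of the array were called higher and 16 lower in the scanner files. Taking the value table in their place gave 3 higher and 1 lower of the tested JAK, STAT and SOCS probes, 8 and 18 of the pathway genes, and 1351 and 1476 of all probes. In the table, leaving out any 1 column gave counts of 0 to 0 for these probes, the pathway genes and all probes, in both directions. Fitting the replicate number as a block, which the labels do not say marks a shared culture or day, also gave 0 in all 6 counts. Deviations of samples with the same number correlated at 0.574 on the scanner arrays and 0.0558 in the table. With all probes kept, the counts were 0 higher and 0 lower for the JAK, STAT and SOCS probes, 0 and 2 for pathway genes, and 15 and 28 for all probes.

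In the table, counts of all probes and of pathway genes rose under 4 settings. Those of the JAK, STAT and SOCS probes stayed at 3 and 1 under the filter for all 4 arrays. The counts are given as higher and lower, for all probes, for pathway genes and for the JAK, STAT and SOCS probes. With probes kept only if all 4 arrays had them above background, they were 2369 and 2504, 14 and 25, and 3 and 1. With an intensity trend and robust prior they were 4058 and 3976, 20 and 27, and 4 and 1. Without adjustment, at p below 0.01, they were 3661 and 3654, 17 and 30, and 3 and 2. At an adjusted p below 0.05 they were 4483 and 4438, 20 and 30, and 4 and 2. Leaving out the adjustment and taking an adjusted p below 0.05 both loosen the threshold, so these counts could not fall. For the other settings the cause was not tested.

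Of the scanner differences of single genes, leaving out 1 array gave -0.14 to 0.77 for Jak2, -1.18 to 0.026 for Stat2, -0.26 to 0.0021 for Stat3, -0.088 to 0.29 for Stat6 and -0.41 to 0.54 for Tyk2, each changing sign, while Socs1 (0.26 to 1.15), Socs3 (0.088 to 0.70) and Jak1 (-0.12 to -0.095) kept theirs. Jak2 turned to -0.11 with only the arrays labelled replicate 1, and Tyk2 to -0.0060 with only those labelled replicate 2 and to -0.012 in the table. In the table, leaving out 1 column gave -0.17 to 0.15 for Tyk2, the one gene there that changed sign. The other scalings moved the median of all probes by less than 0.1.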
